A study of Mus musculus with 9 samples.

Results

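Glutathione S-transferases (GSTs) are enzymes that join the tripeptide glutathione to reactive and foreign compounds. The 10 genes described here were Gsta1, Gsta3, Gsta4, Gstm1, Gstm2, Gstm3, Gstm5, Gstm7, Gstp1 and Gstt1, and each was found by its Ensembl identifier among the 37816 genes of the count table. The members were chosen by symbol once the differences of 84Q and 84Q+IGF1 from 15Q in these same libraries were known, so those values are given below as a description. By general knowledge of their expression, 5 members (Gsta4, Gstm1, Gstm5, Gstm7 and Gstp1) are known from brain, 3 (Gsta1, Gsta3 and Gstm3) are typical of gut and liver, and 2 (Gstm2 and Gstt1) are found widely.

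RNA was sequenced from the cerebellum of 9 C57BL/6 mice, 3 in each of 3 groups, all harvested at 18 months of age. All mice carried a yeast artificial chromosome (YAC) with the human ATXN3 gene, the gene of spinocerebellar ataxia type 3, as a transgene. The tract of CAG repeats in that gene was 15 long in the 15Q mice and 84 long in the 84Q and 84Q+IGF1 mice. The 84Q+IGF1 mice received 50 mg/kg insulin-like growth factor 1 (IGF-1) into the peritoneum weekly from 9 to 18 months of age. The study's methods give injections of 0.01 M PBS to the other mice, whose labels read untreated. The 15Q and 84Q mice were separate transgenic lines obtained from different sources, so line and repeat length cannot be told apart. The sex, litter and dissection day of the mice were not given in the sources used here.

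In the GST reaction, the thiol of glutathione attacks an electrophilic centre, and the conjugate leaves the cell through ABC transporters. The soluble enzymes fall into classes named by Greek letters, among them alpha (Gsta), mu (Gstm), pi (Gstp) and theta (Gstt). In the brain, mu and pi class enzymes are known from glia, while alpha class enzymes are abundant in liver and in the epithelium of the small intestine. Many of these genes are transcribed more strongly when the factor NRF2 binds antioxidant response elements, and several lie in clusters of near copies.

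The near copies matter for the counts, so the first 60 coding bases of the alpha class genes are shown, taken from GENCODE vM21 on GRCm38. Capitals mark bases that differ from Gsta1 at the same position, counted without gaps. Gm3776, Gm10639 and Gsta2 are neighbours of Gsta1 on chromosome 9 and are no members.
Gsta1: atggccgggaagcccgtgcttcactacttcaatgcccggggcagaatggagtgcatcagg
Gm3776: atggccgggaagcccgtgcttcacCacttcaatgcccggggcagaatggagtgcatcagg
Gm10639: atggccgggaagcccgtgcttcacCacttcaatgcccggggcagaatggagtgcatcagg
Gsta2: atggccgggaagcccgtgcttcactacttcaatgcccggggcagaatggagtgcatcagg
Gsta3: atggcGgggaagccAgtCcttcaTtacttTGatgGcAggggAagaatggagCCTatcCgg
Gsta4: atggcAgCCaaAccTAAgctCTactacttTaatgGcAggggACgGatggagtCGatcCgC

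Gm3776 differed from Gsta1 in 1 of these 60 bases and Gsta2 in 0. Over the whole coding sequence, identity with Gsta1 was 99.7% for Gm3776, 97.6% for Gsta2 and 97% for Gm10639, against 75% for Gsta3 and 68.3% for Gsta4. Of the 150-base windows of the Gsta1 transcripts, the length of a read, 68.4% also occurred in a transcript of another gene. For Gsta1, Gsta2, Gm3776 and Gm10639, reads can therefore not always be assigned to one gene, and their separate counts are uncertain. Gsta3 on chromosome 1 and Gsta4 shared no such window with another gene.

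The mu class genes lie together on chromosome 3, between 107895821 (Gstm5) and 108017973 (Gstm1). The first coding bases of the member with the highest level, Gstm1, are shown beside those of Gstm2 and Gstm3, with capitals where a base differs from Gstm1.
Gstm1: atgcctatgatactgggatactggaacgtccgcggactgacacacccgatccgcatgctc
Gstm2: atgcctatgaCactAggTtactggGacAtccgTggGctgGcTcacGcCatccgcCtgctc
Gstm3: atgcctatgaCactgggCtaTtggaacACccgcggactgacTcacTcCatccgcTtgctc

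Coding identity with Gstm1 was 89.4% for Gstm3, 86.1% for Gstm2, 83.1% for Gstm7 and 71.1% for Gstm5. Windows of 150 bases shared with another gene made up 3.44% of those of Gstm3, and none of those of Gstm1, Gstm2, Gstm5 and Gstm7. Gstp1 on chromosome 19 shared 17.6% of its windows, mainly with Gstp2, and Gstt1 on chromosome 10 shared none. Paired reads that span more than 1 such window can be assigned more often than these shares say.

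Library totals ranged from 17482654 to 58269196 counts on genes, and all 3 of the 84Q libraries held fewer counts than 15Q replicates 2 and 3. A floor of 3 counts corresponded to between 0.0513 and 0.171 CPM (counts relative to the total of the library, scaled by TMM, a normalization that sets typical genes equal between libraries). The markers of the labelled tissue were present in every library, with summed levels of 5133 to 5870 CPM for 7 granule cell genes and 5753 to 6449 CPM for 6 Purkinje cell genes. The choroid plexus list (12 genes) stood at 540 CPM in 15Q replicate 1, 531 CPM in 15Q replicate 3 and 1096 CPM in 84Q replicate 2, and at 29.2 to 71.2 CPM in the other 6 libraries. Per the study, the RNA was total cerebellar RNA of mixed regions. How single replicates were dissected is not given in the sources used here, and p-values measure only the spread between these samples.

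To compare levels between genes, TPM values were computed, which divide the counts by gene length before scaling each library to the same sum. By mean TPM over all 9 libraries, the order was Gstm1, Gstp1, Gsta4, Gstm5, Gstt1, Gstm7, Gstm3, Gsta1, Gstm2 and Gsta3. Gstm1 alone held 53.6% to 61.5% of the summed TPM of the 10 members in each library. It ranged from 393 to 437 TPM, above Gstp1 with 82.8 to 103 TPM in all 9 libraries. Gstp1 stood above Gsta4 (56.9 to 79.8 TPM), Gsta4 above Gstm5 (47.3 to 65.4 TPM), Gstm5 above Gstt1 (31.1 to 37.9 TPM) and Gstt1 above Gstm7 (22.8 to 29.3 TPM), each in 9 of 9 libraries.

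The order of the lower members changed with the group. Gstm7 was above Gstm3 in 7 of 9 libraries, and the exceptions were 15Q replicates 2 and 3. Gsta1 was above Gstm2 in 3 of 9 libraries, all of them 15Q, and was the lowest member in 84Q and 84Q+IGF1, at 0 TPM. Gsta3 was the lowest in 15Q and ranged from 1.34 to 2.75 TPM over all libraries. Gstm2 was above Gsta3 in 8 of 9 libraries. In the other, 84Q+IGF1 replicate 2, Gsta3 was at 2.02 TPM and Gstm2 at 1.89 TPM. In mean TPM, Gstm3 ranked 5th in 15Q, at 38.1 TPM, and 7th in both other groups, at 8.93 and 8.75 TPM.

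**Figure D1:**
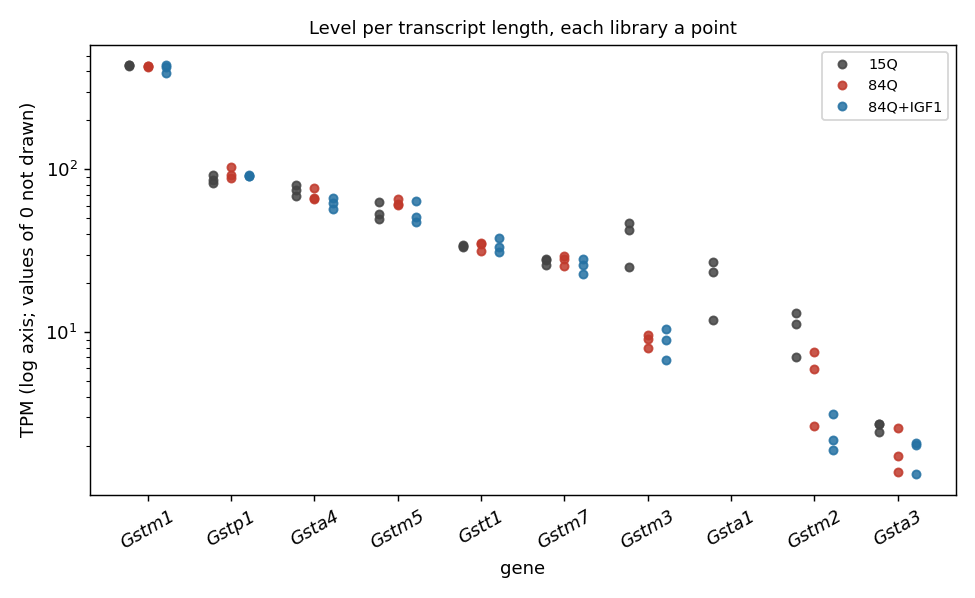
TPM of the 10 members on a log axis, each point a library and each colour a group, with genes ordered by mean TPM from left to right. Gstm1 lies between 393 and 437 TPM in every library, while Gstm3 lies at 25 to 47 TPM in 15Q and at 6.74 to 10.5 TPM elsewhere, and Gsta1 has points only in 15Q because its other values are 0.

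The 5 brain members together held 86.6% ± 2.54 (SD, n = 3) of the members' summed TPM in 15Q, 93.2% ± 0.269 in 84Q and 93.3% ± 0.385 in 84Q+IGF1. The 3 gut and liver members held 5.19%, 8.79% and 9.46% in 15Q replicates 1 to 3, against 1.36% to 1.61% in 84Q and 1.21% to 1.8% in 84Q+IGF1. The widely found members held between 4.76% and 5.98% in all libraries. Every 15Q library thus had a larger gut and liver share than any other library, and 15Q replicate 1 was the closest to them. The split follows the values that chose the members, so no test was made on it.

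Differential expression was fitted with edgeR over 19353 genes, and a call needed a Benjamini-Hochberg adjusted p below 0.1 together with a difference of 1.5-fold or more. All 10 members passed the filter on low counts, Gsta1 only through 15Q. In 84Q against 15Q, 2 of 10 members were called, both lower (Gsta1 and Gstm3), beside 2.14% of all genes tested called in either direction and 1.9% called lower. In 84Q+IGF1 against 15Q, 3 of 10 were called, all lower (Gsta1, Gstm3 and Gstm2), beside 2.25% of all genes and 2.06% called lower. All 3 libraries of 84Q were below all of 15Q for 2 members, beside 13.5% of all genes, and those of 84Q+IGF1 for 5 members, beside 13% of all genes. These comparisons share the 15Q libraries and chose the members, and nothing is read from the counts. The median log2 fold change of the members was -0.01 in 84Q and -0.15 in 84Q+IGF1 against 15Q, and that of all genes was between -0.01 and 0.00 in each of the 3 comparisons.

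Gstm1, the main cytosolic GST of astrocytes, was counted 4301, 6347 and 9117 times in 15Q, 4613, 3659 and 2858 times in 84Q, and 3472, 4162 and 4624 times in 84Q+IGF1. Scaled to CPM, these were 160, 158 and 156, then 159, 161 and 163, then 149, 157 and 158. The raw counts followed the library totals, and on the CPM scale 15Q and 84Q overlapped. The log2 fold change was 0.03 ± 0.05 (SE) in 84Q against 15Q and -0.03 ± 0.05 in 84Q+IGF1 against 15Q.

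Gstp1, the pi class enzyme, stood at 33.2, 31.8 and 34.8 CPM in 15Q, 36, 35.1 and 41.2 in 84Q, and 37, 35.1 and 34.5 in 84Q+IGF1. All 84Q libraries lay above all 15Q libraries, the only member with that order, beside 11.9% of all genes tested. The log2 fold change was 0.17 ± 0.08 and was not called. 84Q+IGF1 overlapped 15Q, at 0.09 ± 0.08. Microglia genes (6) had the same order as a sum, 142 to 168 CPM in 15Q, 170 to 209 CPM in 84Q and 152 to 165 CPM in 84Q+IGF1. In 84Q against 15Q their median log2 fold change was 0.32, and 0 of 6 were called. An unadjusted p under 0.05 was found for 4 of 6, beside 3764 of all 19353 genes tested. Their part in the level of Gstp1 was not tested. Its near copy Gstp2 had a mean of 5.88 CPM in 15Q and 7.23 CPM in 84Q, with overlapping libraries, and was not called (adjusted p = 0.377).

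Gsta4, an alpha class enzyme that takes the lipid peroxidation product 4-hydroxynonenal as its substrate, stood at 21.6, 23.5 and 24.6 CPM in 15Q, 21.5, 21.4 and 24.9 in 84Q, and 20.2, 18 and 21 in 84Q+IGF1. The 84Q+IGF1 libraries lay below all others, with a log2 fold change of -0.24 ± 0.09 against 15Q, not called. Gstm5, known from brain and testis, stood at 15.8 to 19.9 CPM in 15Q, 19.6 to 21.5 in 84Q and 15.1 to 20.1 in 84Q+IGF1, and the groups overlapped. Gstm7 stood at 10.3 to 11.3, 10.4 to 11.9 and 9.39 to 11.1 CPM in the same order of groups. Gstt1, a theta class enzyme of liver and many other tissues, stood at 12.4 to 13, 12.2 to 14 and 11.9 to 14.9 CPM. Against 15Q, the log2 fold changes of Gstm7 and Gstt1 lay between -0.07 and 0.07 in both comparisons, with SEs of about 0.10.

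**Figure D2:**
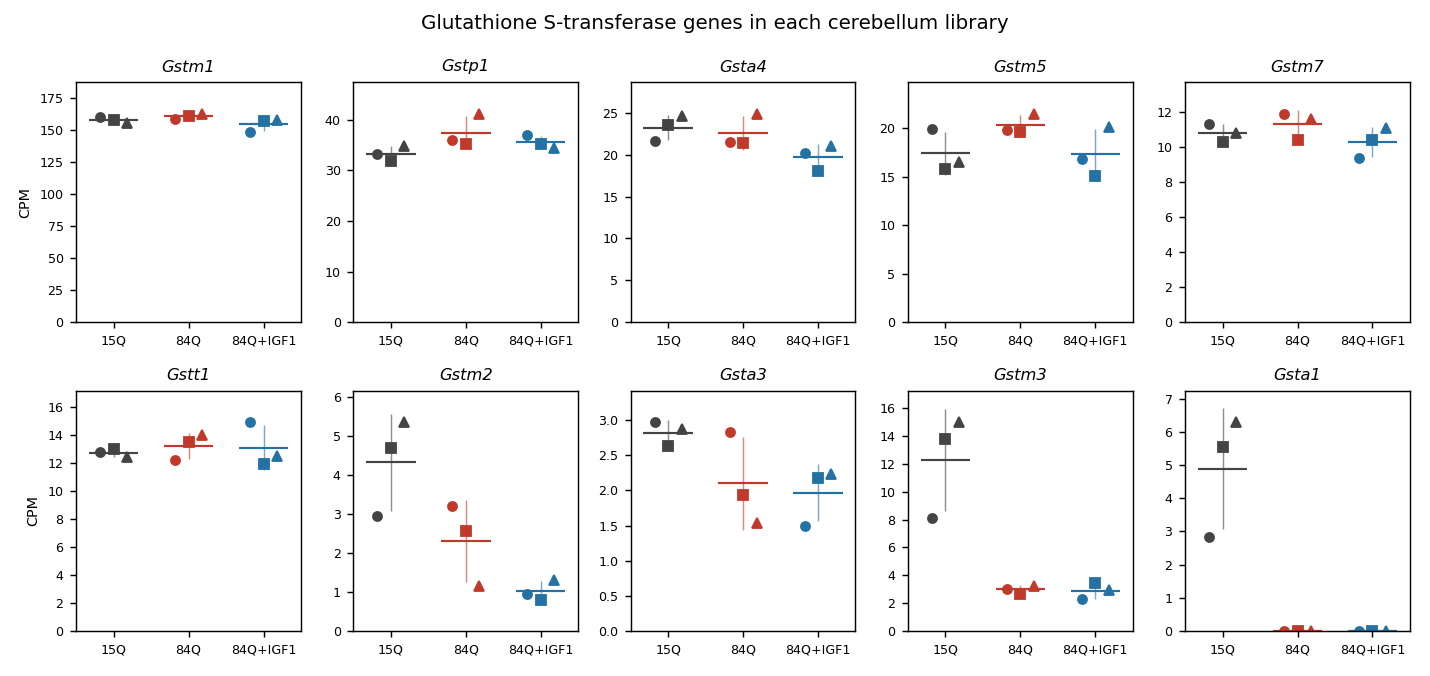
CPM of each member in each library, 1 panel per gene with its own linear axis from 0, with circles, squares and triangles for replicates 1, 2 and 3, horizontal lines for group means and vertical lines for the SD (n = 3). The upper row (Gstm1, Gstp1, Gsta4, Gstm5, Gstm7) and Gstt1 show groups near 1 level, while Gstm3 lies at 8.14 to 15 CPM in 15Q and at most 3.43 CPM elsewhere, and Gsta1 is at 0 outside 15Q.

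Gsta1, an alpha class enzyme, had 76, 224 and 368 counts in 15Q and 0 counts in each of the 6 other libraries. Its level in 15Q was 2.83, 5.56 and 6.29 CPM, a mean of 4.89 ± 1.83 CPM (SD, n = 3). Against a floor of 3 counts per library, the mean of 84Q lay at least 36.1-fold lower than that of 15Q, and for 84Q+IGF1 the bound was at least 42.6-fold lower. The 0 counts allow up to 0.171 CPM in the shallowest library, and the bound covers counting error only. In tissue RNA such as this, fewer cells of a type and less RNA per cell cannot be told apart. Markers of intestine, liver, skeletal muscle and epidermis were also higher in the 15Q libraries, as given below. Their part in the level of Gsta1 was not tested.

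The neighbours of Gsta1 followed the same libraries. Gm3776 had 63, 251 and 405 counts in 15Q, Gsta2 had 39, 102 and 149, and Gm10639 had 12, 29 and 46. In 84Q all 3 genes had 0 counts, and in 84Q+IGF1 the only counts were 2 of Gsta2 in replicate 3. Like Gsta1, each passed the filter on low counts only through 15Q and so had to differ, and their counts are not independent of Gsta1 because the genes share most of their sequence. Per count of Gsta1, Gm3776 had 0.829, 1.12 and 1.1 counts, Gsta2 had 0.513, 0.455 and 0.405, and Gm10639 had 0.158, 0.129 and 0.125 in 15Q replicates 1 to 3.

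Gstm3, a mu class gene placed with the gut and liver members, was counted 219, 557 and 877 times in the 15Q libraries, 88, 61 and 57 times in 84Q, and 53, 91 and 85 times in 84Q+IGF1. These were 8.14, 13.8 and 15 CPM, then 3.04, 2.68 and 3.25, then 2.27, 3.43 and 2.91. All 15Q libraries lay above all others, and 84Q and 84Q+IGF1 overlapped, so that unlike Gsta1 a level well above the floor was left in every library. The log2 fold change was -2.05 ± 0.23 in 84Q and -2.10 ± 0.22 in 84Q+IGF1 against 15Q.

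Gsta3, an alpha class enzyme with a high activity toward aflatoxin epoxide in mouse liver, stood at 2.97, 2.63 and 2.87 CPM in 15Q, 2.83, 1.93 and 1.54 in 84Q, and 1.5, 2.18 and 2.23 in 84Q+IGF1. 84Q replicate 1 lay within the range of 15Q, whereas all 84Q+IGF1 libraries lay below all of 15Q, as they did for Gsta1 and Gstm3. The log2 fold change was -0.40 ± 0.23 in 84Q and -0.51 ± 0.23 in 84Q+IGF1 against 15Q, called in neither. The differences in fold change between Gsta3 and the other gut and liver members were not tested.

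Gstm2, a widely found mu class enzyme, stood at 2.94, 4.69 and 5.35 CPM in 15Q, 3.21, 2.55 and 1.14 in 84Q, and 0.944, 0.791 and 1.3 in 84Q+IGF1. 84Q replicate 1 lay above 15Q replicate 1, and 84Q replicate 3 lay within the range of 84Q+IGF1. The log2 fold change was -0.89 ± 0.32 in 84Q, not called, and -2.10 ± 0.35 in 84Q+IGF1, called. Without 84Q replicate 1 the value in 84Q was -1.21 ± 0.35 and was called, and without the filter on low counts it was -0.89 ± 0.22 and was called, which raised the members called in 84Q against 15Q from 2 to 3.

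**Figure D3:**
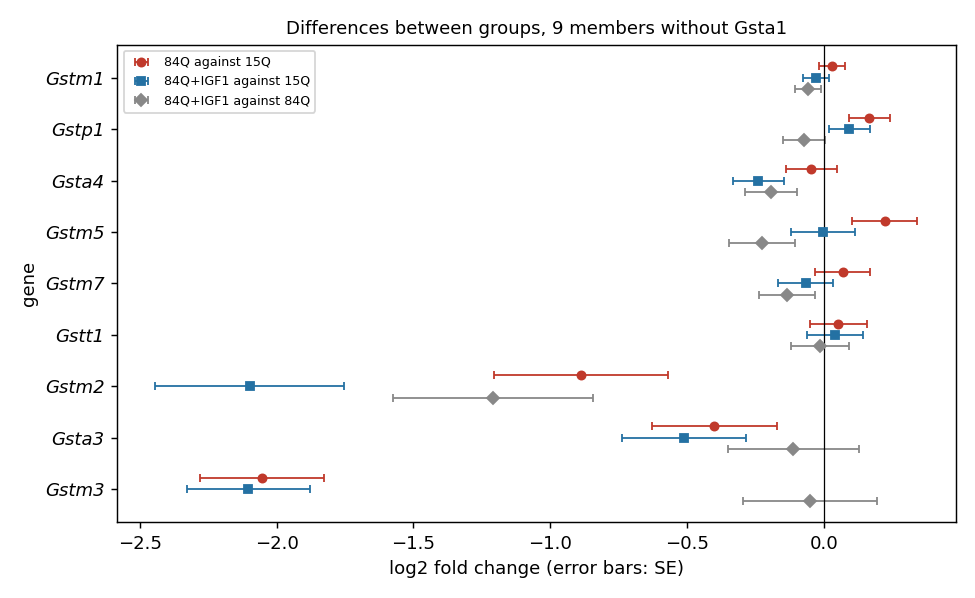
Log2 fold changes of 9 members in the 3 comparisons, with symbols for the estimates and bars for the SE, Gsta1 being left out because 2 groups are at 0. Gstm3 lies near -2 in both comparisons with 15Q and near 0 between 84Q+IGF1 and 84Q, Gstm2 lies at -0.89, -2.10 and -1.21, and the 5 brain members and Gstt1 lie between -0.24 and 0.22.

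The question of whether IGF-1 altered these genes in 84Q mice is addressed by 84Q+IGF1 against 84Q. Its libraries are those of 84Q and 84Q+IGF1 that also entered the comparisons with 15Q. In this comparison 0 of 10 members were called by edgeR's quasi-likelihood test, beside 0% of all 19353 genes, of which 905 had an unadjusted p under 0.05, while DESeq2 called 6 genes and no member. Gsta1 was at 0 in both groups and has no fold change. The largest difference was that of Gstm2, with a log2 fold change of -1.21 (95% interval -2.01 to -0.41, adjusted p = 0.969), and without the filter on low counts it was called (adjusted p = 0.000563). Choroid plexus genes were lower too, with a median log2 fold change of -3.26, 0 of 12 called and 9 of 12 with an unadjusted p under 0.05. Their sum was 46, 1096 and 29.9 CPM in 84Q replicates 1 to 3, where Gstm2 was at 3.21, 2.55 and 1.14 CPM. Oligodendrocyte genes (8) summed to 4047 to 5085 CPM in 84Q and 3095 to 4068 CPM in 84Q+IGF1, with a median of -0.25, 0 called and 6 with an unadjusted p under 0.05. The part of these cells in the members' differences was not tested. Gstm3 differed by -0.05 (interval -0.58 to 0.48, adjusted p = 0.994) and Gsta3 by -0.11 (interval -0.63 to 0.41, adjusted p = 0.993). Among the brain members, the intervals reached at most from -0.49 (Gstm5) to 0.09 (Gstp1), so a change of 1.5-fold in either direction lay outside them.

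All 3 libraries of 84Q+IGF1 lay below those of 84Q for 2 brain members, Gsta4 with a log2 fold change of -0.19 (interval -0.40 to 0.01) and Gstm1 with -0.06 (interval -0.16 to 0.05). Neither was called (adjusted p = 0.969 for both). Of all genes tested, 4.5% had this order and 3.96% the opposite one. Of the 10 members, 8 overlapped between these groups, and none was higher in all 84Q+IGF1 libraries.

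Markers of other tissues moved with Gsta1 and Gstm3. The intestine list, 15 genes among them Sis and Fabp1, summed to 38.7, 58.6 and 63.2 CPM in 15Q, 5.24 to 6.51 CPM in 84Q and 5.04 to 6.25 CPM in 84Q+IGF1, and 15 of 15 genes were lower in every 84Q and every 84Q+IGF1 library than in every 15Q library. In 84Q, 7 of the 15 were at 0 in all libraries, Fabp1, Fabp2, Cdh17, Alpi, Sis, Apoa4 and Guca2a, and in 84Q+IGF1, 6 were at 0. Of the sum left in these groups, Lgals4 alone made 2.74 to 3.77 CPM.

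The liver list (14 genes) summed to 9.33, 18.5 and 20.3 CPM in 15Q, 0.862 to 2.39 in 84Q and 0.445 to 0.979 in 84Q+IGF1. In every 84Q library 9 of 14 genes were lower than in every 15Q library, and for 84Q+IGF1 the count was also 9 of 14. The defining markers Alb and Hpx stood at 1.97 to 4.62 and 2.34 to 5.64 CPM in 15Q, and Fgb, Cyp3a11 and Mup3 were at 0 in both other groups. Skeletal muscle genes (9) summed to 15.4 to 23.3 CPM in 15Q and at most 4 CPM elsewhere, and epidermis genes (10) to 18.8 to 31.6 CPM in 15Q and at most 9.63 CPM elsewhere. Within 15Q, replicate 1 was the lowest for Gsta1, Gstm3, Gstm2 and all 4 of these lists, and Gsta1 amounted to 7.31, 9.48 and 9.96 CPM per 100 CPM of the intestine list. The part of these tissues in the levels of Gsta1 and Gstm3 was not tested.

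Choroid plexus genes were high in 15Q replicates 1 and 3 and in 84Q replicate 2. In 84Q against 15Q, 0 of 12 were lower in every library, with a median log2 fold change of -0.31, and in 84Q+IGF1 against 15Q, where Gstm2 was called, 6 of 12 were lower in every library, with a median of -3.72. By edgeR 0 of 12 were called in each of these comparisons, while 0 and 11 of 12 had an unadjusted p under 0.05. Gsta1 had 224 counts in 15Q replicate 2, whose choroid plexus sum was 46.1 CPM, and 0 counts in 84Q replicate 2, where the sum was 1096 CPM. Without these 3 libraries, a setting chosen after the data were seen that leaves 15Q with 1 library assumed to vary like the others, 2 members were called in 84Q and 3 in 84Q+IGF1 against 15Q, while the genes called over the whole table were 94 in place of 414 and 189 in place of 435. The part of choroid plexus in the members' levels was not tested. Astrocyte and Bergmann glia genes (10), the cells in which Gstm1 is known, summed to 4402 to 5278 CPM with overlapping groups, and 0 of 10 were called in any comparison. With an unadjusted p under 0.05 there were 3 of 10 in each comparison with 15Q and 0 in the other. Of all 19353 genes tested, 3764 in 84Q and 3429 in 84Q+IGF1 against 15Q had such a p. In every library of 84Q, 4 of these 10 glia genes were lower than in every 15Q library, beside 13.5% of all genes. For 84Q+IGF1 the count was also 4 of 10, beside 13% of all genes.

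**Figure D4:**
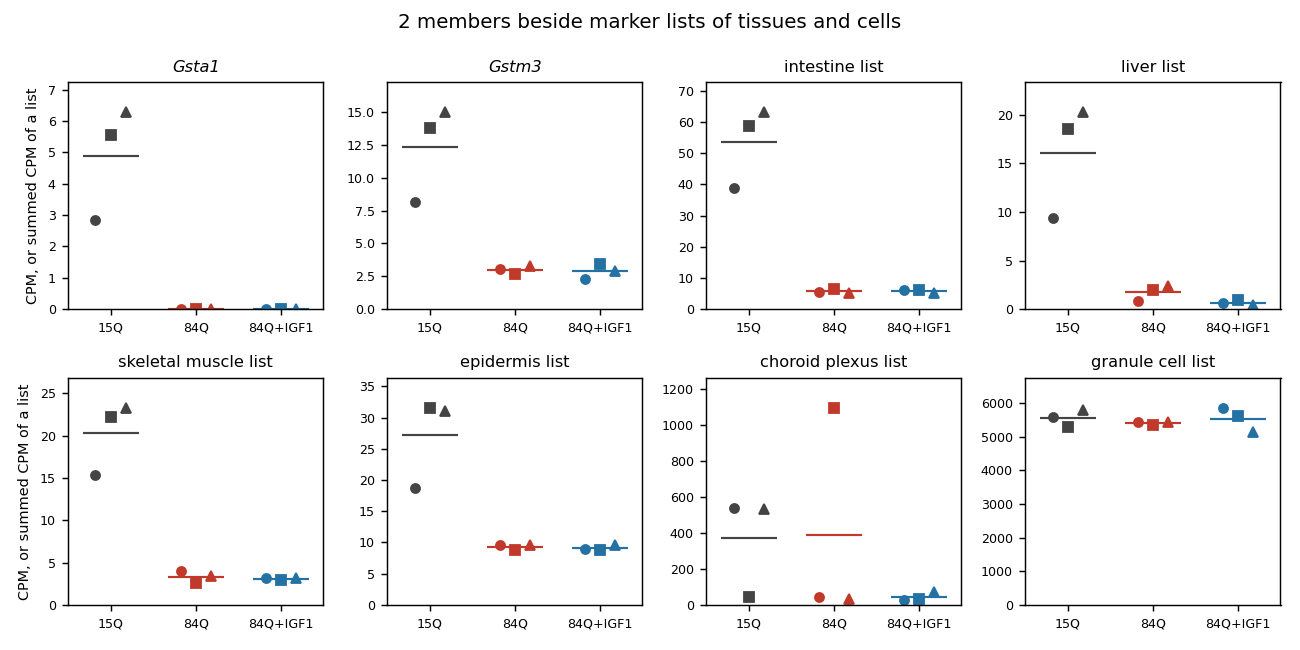
CPM of Gsta1 and Gstm3 and summed CPM of 6 marker lists in each library, 1 panel each with a linear axis from 0, with circles, squares and triangles for replicates 1, 2 and 3 and lines for group means. The intestine, liver, skeletal muscle and epidermis panels have the 15Q libraries above all others with replicate 1 lowest, as in the panels of the 2 members, whereas the choroid plexus panel has 3 high libraries from 15Q and 84Q and the granule cell panel lies between 5133 and 5870 CPM.

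Other genes of glutathione metabolism were described from a list of 65 names, of which 63 had a row and 59 were tested. In 84Q against 15Q, 6 were called lower and 0 higher, beside 2.14% of all genes called and 1.9% called lower. In 84Q+IGF1 against 15Q, 8 were called lower and 0 higher, beside 2.25% called and 2.06% called lower. The split depends on the minimum fold change, since without it 8 were called in 84Q, the 2 added being higher, Gpx4 (log2 fold change 0.29 ± 0.07) and Glrx (0.29 ± 0.08), and 9 in 84Q+IGF1, the added one being lower, Idh1 (-0.36). Of the genes past the minimum fold, Gsta2, Gpx2 and Abcc2, and in 84Q+IGF1 also Mgst2 and Dpep1, passed the filter on low counts only through 15Q. They therefore had to differ and are given without a p or an SE. The other 3, Slc7a11, Anpep and Abcc3, passed it in every group. The list was drawn up with results of these libraries known, and nothing is read from its counts. The median log2 fold change of the list was -0.03 and -0.09. In 84Q+IGF1 against 84Q, 0 of 59 were called, and 1 was called without the filter on low counts.

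Among the other soluble and mitochondrial GSTs and relatives, 14 of 16 names had a row and 12 were tested, and Gsta2 was the 1 called in each comparison with 15Q. Gstp3 had 2, 12 and 16 counts in 15Q and 0 elsewhere and was too low to be tested, and Gstt4 had at most 2 counts in any library. Gstz1, the zeta class enzyme of tyrosine breakdown, had mean levels of 20.3, 20.9 and 19.3 CPM in 15Q, 84Q and 84Q+IGF1, Gstcd had 12.1, 13.1 and 11.5 CPM, and Gsto1, of the omega class, had 11.1, 10.3 and 9.61 CPM. Gstk1, the kappa class enzyme of mitochondria and peroxisomes, had 5.68, 5.55 and 5.02 CPM, Gstt2 had 5.72, 4.34 and 4.67 CPM, and Hpgds, the hematopoietic prostaglandin D synthase, had 5.33, 5.3 and 4.79 CPM. Gstm4 had 4.24, 3.86 and 3.76 CPM, Gstm6 had 2.06, 1.67 and 1.5 CPM, Gstt3 had 1.64, 1.92 and 1.63 CPM, and Gsto2 had 0.603, 0.448 and 0.519 CPM. Apart from Gsta2, the adjusted p of these genes in the comparisons with 15Q was 0.206 or more.

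Among the 6 membrane-bound relatives, 1 was called. Mgst2, a microsomal GST, was counted 12, 26 and 33 times in 15Q, against 6, 7 and 3 times in 84Q and 3, 5 and 4 times in 84Q+IGF1. Its log2 fold change against 15Q was -1.85 in 84Q+IGF1 and -1.26, not called, in 84Q. Mgst3, the most abundant of them, had means of 27.4, 33.1 and 29.5 CPM in 15Q, 84Q and 84Q+IGF1 and was not called (adjusted p = 0.174 in 84Q). Mgst1 had 10.8, 8.38 and 8.95 CPM, Ptges, a prostaglandin E synthase, had 4.76, 5.72 and 4.53 CPM, Alox5ap had 1.06, 1.02 and 1 CPM, and Ltc4s, the leukotriene C4 synthase, had 0.399, 0.596 and 0.191 CPM.

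Of 15 tested genes of glutathione synthesis and turnover, 2 were called in 84Q and 3 in 84Q+IGF1. Slc7a11, the cystine carrier of the cystine-glutamate exchanger, was at 28.4, 28.3 and 36.8 CPM in 15Q, 22.1, 22 and 14.6 CPM in 84Q and 16.4, 19.3 and 20 CPM in 84Q+IGF1, and differed from 15Q by -0.67 ± 0.16 (log2, adjusted p = 0.0542) for 84Q and by -0.75 ± 0.16 (adjusted p = 0.0335) for 84Q+IGF1. Anpep, an aminopeptidase of brush borders and vessel walls, fell by 0.92 ± 0.18 and 0.86 ± 0.18 on the log2 scale (adjusted p = 0.0305 and 0.0369). Dpep1, a membrane dipeptidase, was counted 23, 37 and 41 times in 15Q, 0, 26 and 1 times in 84Q and 0 times in all 84Q+IGF1 libraries, at least 7.19-fold lower in the last group.

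Of 14 tested genes of glutathione reduction and peroxidases, 1 was called. Gpx2, a peroxidase of the gastrointestinal epithelium, had 13, 48 and 65 counts in 15Q and 2 to 7 counts elsewhere. Its log2 fold change against 15Q was -2.20 in 84Q and -2.29 in 84Q+IGF1. Of the 6 genes of the NRF2 list, 0 were called, and the 3 with the highest levels, Srxn1, Txnrd1 and Keap1, had adjusted p between 0.127 and 0.898 in the comparisons with 15Q. Here too, 15Q replicate 1 had the lowest Gpx2 level of its group, 0.483 CPM beside 1.19 and 1.11.

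Of the 6 exporters of conjugates, 2 were called in both comparisons. Abcc2, a transporter of the bile canaliculus and the intestinal brush border, was counted 66, 133 and 206 times in 15Q, but only 3, 1 and 1 times in 84Q and 1, 5 and 10 times in 84Q+IGF1. Its mean of 0.0682 CPM in 84Q rests on at most 3 counts per library, so no fold is given beside the 3.09 CPM of 15Q. In 84Q+IGF1 the log2 fold change against 15Q was -3.93. Abcc3, a basolateral transporter, was at 2.34 to 3.43 CPM in 15Q, 1.32 to 1.54 CPM in 84Q and 1.37 to 1.5 CPM in 84Q+IGF1 (on the log2 scale -1.07 ± 0.19 with adjusted p = 0.0183, and -1.10 ± 0.19 with adjusted p = 0.0118). Of the called genes, Gsta2, Gpx2 and Abcc2 are known from gut or liver, and they passed the filter on low counts only through 15Q. Slc7a11, Anpep and Abcc3 passed it in every group, and Slc7a11 kept means of 19.6 CPM in 84Q and 18.6 CPM in 84Q+IGF1. The intestine, liver, skeletal muscle and epidermis lists were also lower outside 15Q, as given above. The part of these tissues in the called genes was not tested. Without 15Q replicate 2 or without 15Q replicate 3, 2 of the list were called in 84Q against 15Q in place of 6. In 84Q+IGF1 against 15Q, 4 were called without 15Q replicate 2, 3 without 15Q replicate 3 and 4 without 84Q+IGF1 replicate 1, in place of 8.

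The genes whose log2 CPM was most like that of a member over the 9 libraries were sought among 19343 other genes. For Gsta1 they were Retnla, Clca3b, Cyp2c66, Ces2c and Gm10639, each with a Pearson r of at least 0.9999, and 224 genes had an r over 0.9. The 9 libraries form separate clusters for these genes, 3 with counts and 6 at or near 0, so the r values describe that split. For Gstm1 they were Gm8181 (r = 0.973), Adra2a (0.968), Ccdc152 (0.957), C1ql3 (0.954) and Klhdc8a (0.941), with 22 genes over 0.9. For Gstp1 they were Rps27a (0.977), Dcun1d5 (0.971), H3f3a (0.964), Dazap2 (0.962) and Snu13 (0.959), and for Gsta3 they were 2700097O09Rik (0.989), Ncaph (0.988), C530008M17Rik (0.973), Abcb1a (0.972) and Vgll3 (0.969). The libraries share depth and group in these values, which are given without a test.

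Promoter windows from 250 bases before to 50 bases after the start of the gene were at hand for 9 of the 10 members in RefSeq (GRCm38.p6), and Gsta4 had none. The windows of Gsta1 (chr9:78230419-78230718, plus strand) and Gstm3 (chr3:107969125-107969424, minus strand), both called in 84Q and 84Q+IGF1, are shown beside the nearer of the windows of Gstm1 to its coding start (chr3:108017769-108018068, minus strand), each written along the gene's own strand. Capitals mark matches to the motifs searched on both strands, which were the antioxidant response element core TGACNNNGC, the TATA box TATAAA and the GC box GGGCGG.
Gsta1 promoter: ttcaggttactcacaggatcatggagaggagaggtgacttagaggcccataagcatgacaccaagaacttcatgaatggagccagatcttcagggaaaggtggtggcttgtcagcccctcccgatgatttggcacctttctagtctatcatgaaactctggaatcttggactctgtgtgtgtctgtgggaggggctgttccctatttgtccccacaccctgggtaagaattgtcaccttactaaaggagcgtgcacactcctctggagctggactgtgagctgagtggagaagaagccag
Gstm3 promoter: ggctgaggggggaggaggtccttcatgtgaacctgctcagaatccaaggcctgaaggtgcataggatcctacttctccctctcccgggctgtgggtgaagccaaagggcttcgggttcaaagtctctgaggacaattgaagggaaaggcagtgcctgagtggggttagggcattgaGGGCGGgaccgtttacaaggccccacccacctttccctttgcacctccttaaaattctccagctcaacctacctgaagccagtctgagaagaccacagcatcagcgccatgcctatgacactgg
Gstm1 promoter: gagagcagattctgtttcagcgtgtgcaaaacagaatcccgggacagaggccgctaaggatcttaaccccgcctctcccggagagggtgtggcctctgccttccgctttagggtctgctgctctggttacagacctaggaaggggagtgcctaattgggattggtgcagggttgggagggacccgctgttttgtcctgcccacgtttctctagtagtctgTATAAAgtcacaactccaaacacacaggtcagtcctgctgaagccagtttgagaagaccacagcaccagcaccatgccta

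Gsta1 held none of the 3 motifs, Gstm3 held a GC box and Gstm1 held a TATA box whose first base lay 30 bases before the start. The antioxidant response element core was found in windows of 3 of 9 members, Gsta3, Gstm5 and Gstm7, beside 12.4% of all 32851 windows. The TATA box was found in 3 of 9 members (Gstm1, Gstm5 and Gstm7) beside 13.6% of all windows, and the GC box in 4 of 9 (Gstm3, Gstm5, Gstm7 and Gstp1) beside 35.7%. Gstm1 and Gstm7 each had 2 windows. A member was counted if any of its windows held the motif, whereas the shares of all windows count each window singly. The windows of Gm3776 and Gm10639 were 90.7% and 88.9% identical with that of Gsta1. A match is a run of letters, and no binding was measured here.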

How the data were processed

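Mouse cerebellar RNA was sequenced in 9 libraries as paired reads of 150 bases with a strand-specific protocol. Per the labels and the study's methods, Trimmomatic 0.36 removed adapters and poor bases, HISAT2 2.2.0 placed the reads on GRCm38.p6 and featureCounts assigned them to genes. The authors deposited raw counts, not normalized, for 37816 genes. The annotation and strand setting of the counting are not given in the sources used here. Reads that match near copies can be lost or split by such counting. The floor of 3 counts and the bounds made from it cover counting error only, while SEs and intervals of fold changes include the spread between libraries.

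Genes were named from GENCODE vM21, to which 37681 identifiers matched without their version number. Counts were tested with edgeR 4.0.16 (R 4.3.3) by TMM normalization, filterByExpr and a quasi-likelihood fit to all 9 libraries, with Benjamini-Hochberg adjustment over 19353 genes and two-sided tests. The SE of a log2 fold change was derived from the F statistic. CPM used TMM-scaled totals, log2 CPM a prior count of 2, and TPM the joined exon length of each gene. Fold changes against a group with 0 counts in every library are bounds made from the floor of 3 counts. The alternatives were DESeq2 1.42.0, its size factors in edgeR, no filter, other thresholds, a block for the replicate number, the level of Xist as a covariate, fits of 2 groups, summed near copies, and each library left out in turn.

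The members and lists were chosen with earlier results of these data known. The text names all members, all other GST and membrane-bound relatives, the called genes of the other glutathione lists or else the 3 most abundant, the 5 genes most like Gsta1, Gsta3, Gstm1 and Gstp1, and markers. Of the list, Gsta5 and Gsta13 had no row under those names. Replicates of a group differed by a chi-square per gene of 8.7 to 14.5, where sampling noise gives about 1. Coding sequences were aligned with Biopython 1.88. The reads and the human transgene were not analysed here.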

Additional observations from a re-analysis of the deposited data

How the results depend on the processing

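The members called were 2 in 84Q and 3 in 84Q+IGF1 against 15Q and 0 in 84Q+IGF1 against 84Q, and each count stayed within 1.5 times under the settings tried, except that 1 member, Gstm2, was called in 84Q+IGF1 against 84Q with no filter on low counts (the cause was not tested). Leaving out a library gave 2 to 3, 3 to 3 and 0 to 0 members. The genes called over the whole table, 414, 435 and 0, became 1025, 1284 and 168 with no filter, 242 and 271 with the replicate block, 243 and 281 at an adjusted p under 0.05, and 928 and 711 with no minimum fold change in the comparisons concerned. They became 274 in 84Q against 15Q with the Xist covariate and 6 in 84Q+IGF1 against 84Q with DESeq2. Leaving out a library gave 184 to 551, 226 to 629 and 0 to 9. The glutathione genes called, 6, 8 and 0, became 5 in 84Q+IGF1 against 15Q with the replicate block and 1 in 84Q+IGF1 against 84Q with no filter, and 2 to 6, 3 to 8 and 0 to 0 with a library left out. Without the 3 libraries rich in choroid plexus genes, chosen after seeing the data, the genes called were 94, 189 and 9 and the glutathione genes 2 and 5 in the comparisons with 15Q. Fewer samples enter these fits.

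The replicate numbers did not pair the libraries, since deviations of same-numbered libraries correlated between -0.309 and 0.0788, and the block left each member count as it was. The gut and liver share of the members was 1.87% in 84Q and 1.89% in 84Q+IGF1 by CPM in place of 1.48% and 1.51% by TPM.

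Among 480 values of members' log2 fold changes under the alternatives, 452 kept their direction and side of the threshold, 3 of Gstm2 passed the threshold anew and 25 changed sign, all of them of values that were not called. The values of Gsta1 against 15Q are among the 480, and with 0 counts in 84Q and 84Q+IGF1 they could not change direction. The alternatives reuse the same libraries, so the 480 values are not independent. Gstm5 in 84Q+IGF1 against 15Q (-0.0028) was 0.0084 with DESeq2, 0.00083 with its size factors, 0.0028 in a fit of 2 groups and 0.14 without the 3 choroid plexus libraries, where Gstm7 was 0.0081 and Gstt1 in 84Q+IGF1 against 84Q was 0.0073. Gstt1 was -0.00099 in 84Q and -0.016 in 84Q+IGF1 against 15Q with the Xist covariate. The sum of the mu class counts, which stands for Gstm1 there and leaves its other members without a value of their own, was -0.039 in 84Q against 15Q, the same with Gm3776 and Gm10639 added to the alpha sum, a sum chosen after seeing the data. With a library left out, the ranges that crossed 0 were -0.12 to 0.0027 for Gsta4 in 84Q against 15Q, and in 84Q+IGF1 against 15Q -0.044 to 0.00039 for Gstm1, -0.12 to 0.11 for Gstm5 and -0.057 to 0.11 for Gstt1. In 84Q+IGF1 against 84Q they were -0.28 to 0.18 for Gsta3, -0.20 to 0.087 for Gstm3 and -0.11 to 0.051 for Gstt1.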
